A study of Rattus norvegicus with 18 samples.

Results

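The BAF subunits examined here are 10 genes of the BAF (Brg1/Brm-associated factor) chromatin remodeling complex, chosen by name because their products belong to the progenitor form, the neuronal form or the common core of the complex. They were found by gene symbol in the probe annotation of the arrays, and 9 of the 10 were matched, against 21563 gene symbols in the whole table. Smarca2 was not analysed here. RNA came from primary cortical neurons of the rat, which on day 1 of culture had received, for 6 hours, a pLKO.1 lentivirus carrying either a CHD5 shRNA or a scrambled control shRNA. It was harvested on day 5, day 9 or day 12, and 3 replicates (a, b and c) for each lentivirus and day gave 18 arrays in 6 groups. All the cultures were infected, so uninfected neurons were not compared, and 1 CHD5 shRNA sequence was used on these arrays. Nothing in the labels says whether the replicates came from separate cultures, so the p-values measure the spread between these arrays, which may be technical. The Chd5 transcript itself was not analysed here.

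BAF complexes use the energy of ATP, through Brg1 (the product of Smarca4) or Brm (Smarca2), to move or evict nucleosomes. When neural progenitors leave the cell cycle, several subunits are exchanged for close relatives: BAF53a (Actl6a) gives way to BAF53b (Actl6b), and BAF45a (Phf10) to BAF45b, encoded by Dpf1, which the array annotation lists under its older symbol Neud4. BAF60a (Smarcd1) and BAF60c (Smarcd3) are alternative subunits that link the complex to transcription factors, while BAF47 (Smarcb1) and BAF57 (Smarce1) are present in the progenitor and the neuronal form alike.

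The array reads each transcript with a probe of 50 bases. The probes of the paralogs Smarcd1 and Smarcd3 are shown because they fall on corresponding stretches of related transcripts, which shows how much sequence the probes share. In each, capitals mark the stretch that lines up with the other probe without gaps.
Smarcd1: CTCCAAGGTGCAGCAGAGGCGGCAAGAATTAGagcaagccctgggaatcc
Smarcd3: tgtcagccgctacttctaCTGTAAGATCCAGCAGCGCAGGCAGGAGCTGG
Over the 32 bases that line up, 21 were identical (65.6%), and the rest of each probe had no counterpart in the other. The annotation places each of these probes in 2 genomic blocks, that is, across an exon junction.

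Promoter sequences are shown for the members whose signal differed most between the lentiviruses. RefSeq (GRCr8) held a promoter window, 250 bases before to 50 after a transcript start, for all 9 members. Capitals mark the letters GGGCGG, a GC box, or its reverse complement, and each sequence is written along the gene's strand.
Smarcd1, chr7:132708377-132708626, plus strand: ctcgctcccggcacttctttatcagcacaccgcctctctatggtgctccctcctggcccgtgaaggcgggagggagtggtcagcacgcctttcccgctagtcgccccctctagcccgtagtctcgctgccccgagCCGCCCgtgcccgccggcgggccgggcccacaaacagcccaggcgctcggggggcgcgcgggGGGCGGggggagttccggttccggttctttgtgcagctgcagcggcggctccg
Actl6b, chr12:24778194-24778401, minus strand: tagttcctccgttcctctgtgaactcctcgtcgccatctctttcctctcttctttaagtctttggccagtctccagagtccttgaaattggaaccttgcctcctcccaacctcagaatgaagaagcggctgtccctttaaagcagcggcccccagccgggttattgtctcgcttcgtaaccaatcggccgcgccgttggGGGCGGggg
Dpf1 (Neud4), chr1:93733770-93733799, plus strand: GGGCGGcCCGCCCtgccaacctgattggtt
GGGCGG was found on either strand in the 300-base window of 9 of the 9 members, and in 33.1% of 33469 rat promoter windows. The letters GGACAG, which form part of the site bound by the repressor REST, occurred in 2 of the 9 (Actl6b and Smarce1), against 21.7% of all windows. TTCAGCACC, the other part of that site, occurred in 0 of the 9 and in 0.356% of all windows, and TGACGTCA, the cAMP response element, in 0 of the 9 and in 1.83%. The 250 bases before the start held between 13 CG pairs (Smarcd3) and 43 (Phf10), where the median over all windows was 5 and the upper quartile 15.

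Levels are bead signals in arbitrary units. For the comparisons the log2 signals of each array were brought to the same mean and spread, so that a normalized log2 value of 0 is the mean of the array's kept probes, and a gene was called changed when its adjusted p in limma was under 0.05. Of 22523 probes, 11079 were detected on at least 1 array and kept. The probes of 9 members were kept, 7 of them detected on all 18 arrays. Smarcd1 was detected on 17 arrays, and Phf10 on 2, with signals of 66.3 to 123 against a background of 65.2 to 81.7. Mean signals per array lay between 400.2 and 789.3, apart from the day 9 control array of replicate b. On that array the mean signal was 134.8, 7047 probes were detected against 8360 to 9931 elsewhere, and the SD of the log2 signals was 1.108 against 1.722 to 2.016. Tests that rest on this dim array are therefore given with and without it.

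The cultures carried the RNA of neurons, with all 10 of 10 neuron markers kept, and also of glia. Of 10 astrocyte markers 8 had a probe, and all 8 were kept. They made up 0.0852% to 0.0911% of an array's summed signal in day 5 control cultures, 0.315% to 0.357% at day 9 and 0.497% to 0.534% at day 12. After CHD5 shRNA the same sums were 0.0658% to 0.0742%, 0.161% to 0.205% and 0.277% to 0.281%. The neuron markers made up 0.263% to 0.271% in control cultures at day 5, 0.217% to 0.255% at day 9 (dim array included) and 0.266% to 0.298% at day 12. After CHD5 shRNA they made up 0.248% to 0.258%, 0.27% to 0.273% and 0.296% to 0.306%. Of the microglia markers 2 of 7 were kept (6 had a probe), and Itgam, Cx3cr1, Ptprc and Tyrobp were detected on no array. The kept ones reached 0.00614% in day 9 control cultures, dim array included, and at most 0.00196% in the other groups. The progenitor markers (8 of 10 kept, 9 with a probe) lay between 0.308% and 0.73% over the 6 groups, and those of proliferation (5 of 10, 5 with a probe) between 0.0604% and 0.111%. Those of the oligodendrocyte lineage (8 of 10, 9 with a probe) lay between 0.0688% and 0.166%, and those of endothelial cells and fibroblasts (3 of 8, 6 with a probe) between 0.00298% and 0.0104%. The highest progenitor and endothelial sums fell in day 9 control cultures, the group with the dim array. In the other groups they were at most 0.49% and 0.00695%. In these bulk samples fewer cells of a type and less RNA per cell cannot be told apart.

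**Figure D1:**
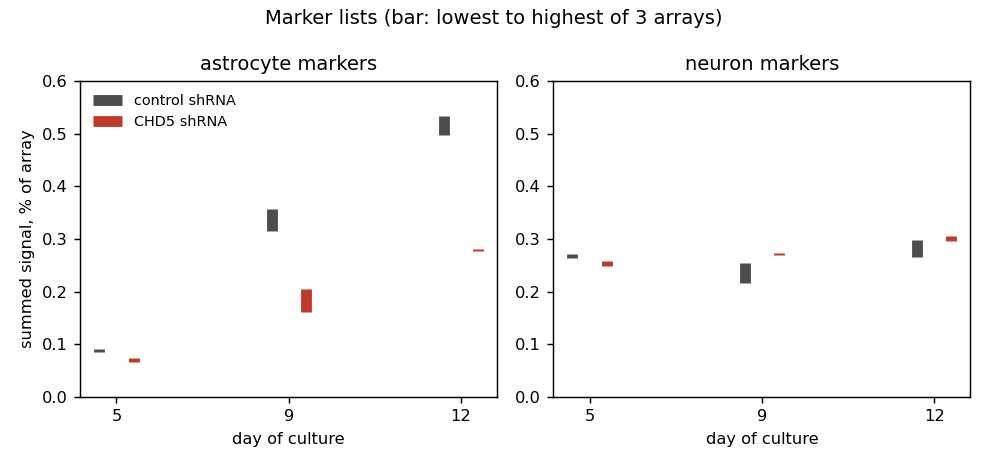
Summed signal of astrocyte markers (left) and neuron markers (right) as a percentage of the summed signal of kept probes on an array, by day of culture. Bars run from the lowest to the highest of 3 arrays for control shRNA (grey) and CHD5 shRNA (red). The astrocyte sum reached 0.534% in control cultures at day 12 and stayed at or under 0.281% after CHD5 shRNA.

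The first question was how the subunits moved as the control cultures aged. From day 5 to day 12, 4 of the 9 members fell (12.5% of all probes did) and 1 rose (11.1% of all probes). The members that fell were both neuronal subunits, Neud4 and Actl6b, together with Smarca4 and Smarce1, and the member that rose was Smarcd3. The median log2 change of the 9 members was -0.30, and that of all probes -0.02. The arrays of day 5 and day 12 did not overlap for 6 of the 9 members, where 44.3% of all probes did not. The plot of values by array gives every member.

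**Figure D2:**
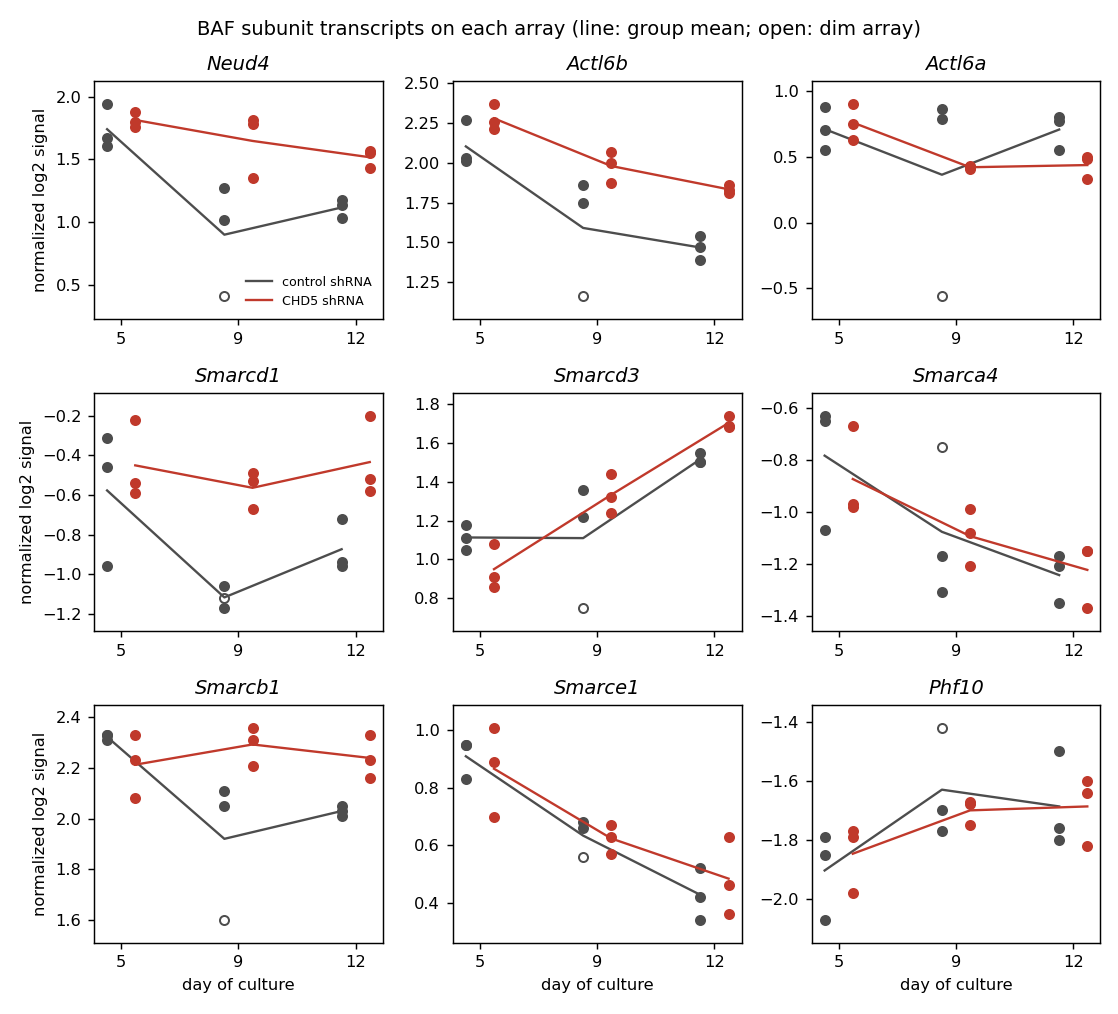
Normalized log2 signal of the 9 members on each of the 18 arrays (points) and the group means (lines), by day of culture, for control shRNA (grey) and CHD5 shRNA (red). The open point at day 9 is the dim control array. The Neud4 and Actl6b values of the lentiviruses lie apart at day 12, and Smarcd3 rises in both.

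Neud4, the neuron-specific double PHD finger subunit, had normalized log2 values of 1.61, 1.67 and 1.94 in the day 5 control arrays. At day 9 they were 1.27, 0.41 (the dim array) and 1.02, and at day 12 they were 1.14, 1.18 and 1.03. Each later value was below each day 5 value. Of all probes, 25.7% did not overlap between days 5 and 9, and 44.3% between days 5 and 12. The log2 difference between day 12 and day 5 was -0.62 ± 0.17 (SE of the limma fit, n = 3 arrays a group, adjusted p = 0.0108), which is 0.65-fold, and that between day 9 and day 5 was -0.84 ± 0.17 (adjusted p = 0.0018). With the dim array left out they were -0.64 and -0.61. Over 28 alternatives the day 9 difference was called in 27 and the day 12 difference in 26. The day 12 difference just missed without day 5 control replicate c (-0.53). The exact two-sided permutation p of each was 0.1, the smallest that 3 against 3 arrays can give.

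Actl6b, the neuronal actin-related subunit, had raw signals of 1396 to 2720 in control cultures at day 5, against 831 to 1013 at day 12. Its normalized log2 values were 2.27, 2.03 and 2.01 at day 5, and 1.54, 1.39 and 1.47 at day 12. Again the groups did not overlap, which held for 44.3% of all probes. The log2 difference was -0.64 ± 0.14 (limma adjusted p = 0.00221), and from day 5 to day 9 it was -0.51 ± 0.14 (adjusted p = 0.0135), or -0.30 without the dim array. The day 5 to day 9 difference was called in 25 of 28 alternatives. Those that failed included the fit without day 5 control replicate a (-0.42).

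Actl6a, the progenitor counterpart of Actl6b, had a different course. Its normalized log2 values were 0.88, 0.70 and 0.55 in day 5 control arrays and 0.77, 0.55 and 0.80 at day 12. The groups overlapped, and the log2 difference was 0.00 ± 0.24 in the limma fit, or 0.00 ± 0.10 without the dim array. At day 9 the values were 0.86, -0.56 and 0.79, and the low one was that of the dim array. Phf10, the progenitor counterpart of Neud4, was too dim to follow.

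Smarcd3 rose in both kinds of culture. Control arrays had normalized log2 values of 1.05, 1.11 and 1.18 at day 5 and 1.55, 1.5 and 1.5 at day 12, with no overlap (44.3% of all probes had none). The log2 difference was 0.40 ± 0.12 (limma adjusted p = 0.0231). In CHD5 shRNA cultures the values were 0.91, 0.86 and 1.08 at day 5 and 1.68, 1.69 and 1.74 at day 12, a log2 difference of 0.75 ± 0.12 (limma adjusted p = 0.000279), or 1.69-fold. The control difference of Smarcd3 was called in 21 of 28 alternatives. It was lost from the calls, at 0.37 to 0.41, when day 5 replicate a or b or day 12 replicate a, b or c was left out. Its paralog Smarcd1 did not pass the test from day 5 to day 12 in either, at -0.30 ± 0.15 and 0.02 ± 0.15, though in control cultures it fell by 0.54 on the log2 scale from day 5 to day 9 (SE 0.15, limma adjusted p = 0.0149). Without the dim array it was -0.55, and with neqc, another background correction and normalization, -1.04. That fall was called in 23 of 28 alternatives. Those that failed included the fits without day 5 control replicate b (-0.48) or c (-0.41).

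Of the ATPase and the core subunits, Smarca4 fell in control cultures by 0.46 on the log2 scale from day 5 to day 12 (SE 0.14, limma adjusted p = 0.0272), and was not called without any one of day 5 replicates a and b and day 12 replicates a, b and c (-0.38 to -0.49). Smarca4 was dim, with signals of 161 to 283 at day 5 and 130 to 156 at day 12. Backgrounds of 65.2 to 81.7 were not subtracted in the main fit, and its log2 difference ran from -0.72 to -0.33 over 28 alternatives, of which 20 called it. Smarce1, the HMG-box subunit BAF57, fell by 0.48 (SE 0.10, limma adjusted p = 0.00155). Its values ran from 0.83 to 0.95 at day 5, from 0.56 to 0.68 at day 9 and from 0.34 to 0.52 at day 12. No 2 of these groups overlapped, where 25.7% of all probes did not from day 5 to 9, 18.4% from day 9 to 12 and 44.3% from day 5 to 12. Smarcb1, the BAF47 subunit, was at 2.31 to 2.33 at day 5 and 2.01 to 2.05 at day 12. That log2 difference of -0.29 ± 0.11 had an adjusted p of 0.0743 in limma, and 0.00531 without the dim array, within a range of 0.00531 to 0.359 over all the alternatives.

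From day 5 to day 9 in control cultures 4 of the 9 members fell (12.8% of all probes), namely Neud4, Actl6b, Smarcd1 and Smarcb1. The call of Smarcb1 held in 21 of 28 alternatives. Smarcb1 was not called without day 5 control replicate b (-0.40), nor without the dim array, at -0.25, and Smarca4, at -0.46 in place of -0.29, was called in its stead, so that this fit again called 4 members, and 21% of all probes. From day 9 to day 12, 0 of the 9 were called by limma (4.16% of all probes), and 1 had an unadjusted p under 0.05 (2224 of all 11079 probes). Leaving that array out gave 1 call, Actl6b, at -0.35, where 6.34% of all probes were called.

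In CHD5 shRNA cultures, 2 of the 9 members fell from day 5 to day 12 (8.56% of all probes) and 1 rose (8.46%). Actl6b fell by 0.44 on the log2 scale (SE 0.14, limma adjusted p = 0.0354) and Smarce1 by 0.39 (SE 0.10, limma adjusted p = 0.0111), and Smarcd3 rose as given above. Actl6b was not called when any one of these 6 arrays was left out (-0.39 to -0.47), nor was Smarce1 without day 5 replicate b (-0.31) or day 12 replicate a (-0.32). Over 28 alternatives Actl6b was called in 20 and Smarce1 in 22. Neud4 had a log2 difference of -0.30 ± 0.17, Actl6a of -0.32 ± 0.24 and Smarca4 of -0.35 ± 0.14, none of which passed the test. When the dim array, whose spread enters the shared error, was left out, all 3 were called and 6 of 9 members in all, where 32.2% of all probes were called; in control cultures the same fit called 6 of 9 members and 39% of all probes. Between days 5 and 9, limma called 0 of the 9 (9.33% of all probes), with 3 at an unadjusted p under 0.05 (2666 of all 11079 probes). Between days 9 and 12 it called 0 (1.37% of all probes), with 1 at such a p (1088 of all 11079 probes). The fit that left out the dim array called 3 (25.8% of all probes) and 1 (4.95%).

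**Figure D3:**
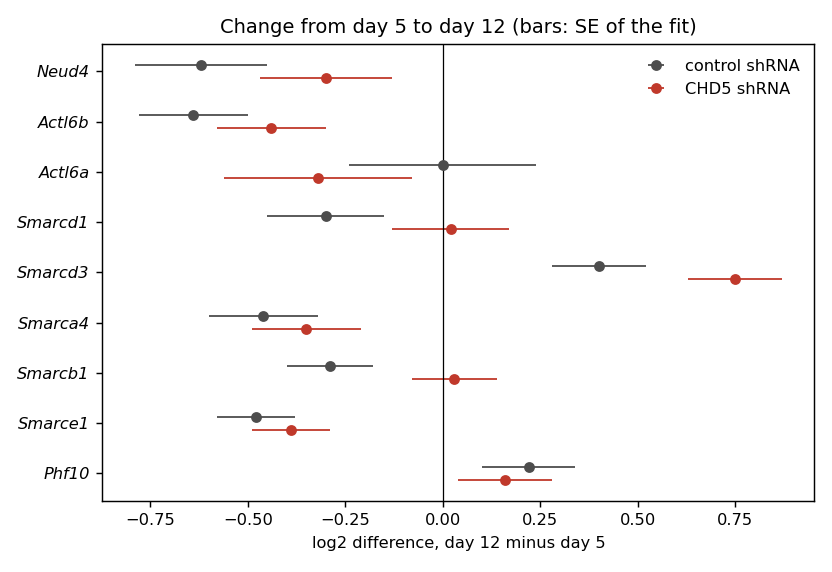
Log2 difference of each member between day 12 and day 5 in control shRNA (grey) and CHD5 shRNA (red) cultures, with all 18 arrays in the fit. Bars are the SE of the limma fit. Neud4 lies at -0.62 and -0.30, Actl6b at -0.64 and -0.44, and Smarcd3 at 0.40 and 0.75.

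Alongside these changes the astrocyte markers rose. From day 5 to day 12 in control cultures 8 of 8 kept markers were called higher (11.1% of all probes), by a median of 2.68 on the log2 scale, Apoe by 5.20 and S100b by 3.64. Of the 10 neuron markers 2 were called higher (Syp by 0.44 and Syt1 by 0.26) and 1 lower (Map2, at -0.60), where 12.5% of all probes were called lower. The part of these shifts in the fall of Neud4 and Actl6b was not tested.

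The second question was how the subunits differed between the lentiviruses on the same day. At day 5, limma called 0 of the 9 members (0.171% of all probes), and 0 had an unadjusted p under 0.05 (627 of all 11079 probes). The log2 differences, CHD5 shRNA minus control, ran from -0.16 (Smarcd3) to 0.17 (Actl6b). In 0 of the 9 did the groups lie apart without overlap, where 11% of all probes did.

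At day 9, 2 of the 9 members were called, both higher after CHD5 shRNA (3.65% of all probes were called higher). These were Neud4 and Smarcd1. The groups did not overlap for 4 of the 9, the other two being Actl6b and Smarcb1, against 20.6% of all probes. With the dim array left out they did not overlap for 5 of the 9, Actl6a being the fifth, against 47.2%.

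Neud4 had normalized log2 values of 1.81, 1.35 and 1.78 after CHD5 shRNA at day 9, beside the control values of 1.27, 0.41 and 1.02. The lowest CHD5 shRNA value was 1.35 and the highest control value 1.27, so the groups were close at that edge. The log2 difference was 0.74 ± 0.17 (limma adjusted p = 0.0154), or 1.67-fold. Leaving out the dim array gave 0.51 ± 0.13 (limma adjusted p = 0.0148), within a range over all alternatives of 0.0025 to 0.355. Leaving out CHD5 shRNA replicate a gave 0.66 and replicate c gave 0.68, and neither passed, nor did the value with median centring (0.76), without a detection filter (0.80) or with day 9 arrays alone in the fit (0.70). The fit with day 9 arrays alone called 0% of all probes. Neud4 was called in 23 of 28 alternatives, with a log2 difference of 0.51 to 0.92.

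Smarcd1 had values of -0.53, -0.67 and -0.49 after CHD5 shRNA, and of -1.06, -1.12 and -1.17 in control cultures. All the CHD5 shRNA values were higher. The log2 difference was 0.55 ± 0.15 (limma adjusted p = 0.0363), or 1.46-fold, and 0.56 ± 0.16 without the dim array, on which Smarcd1 was not detected. Over 28 alternatives it lay between 0.48 (median centring) and 1.14 (neqc), always higher after CHD5 shRNA, and was called in 19. The arrays whose omission ended the call were CHD5 shRNA replicates a (0.53) and c (0.51) and control replicate c (0.52). It was also not called with median centring, without a detection filter (0.64), with detection on every array of a group (0.50), with the second measurement of replicate a (0.53), with array weights (0.60) or with day 9 arrays alone in the fit (0.51), where 0% of all probes were called.

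Of the remaining members at day 9, Actl6b was higher by 0.39 ± 0.14 on the log2 scale and Smarcb1 by 0.37 ± 0.11, and neither passed (limma adjusted p = 0.111 and 0.0614). Without the dim array these differences were 0.17 and 0.22. Actl6a turned on that array. With it the log2 difference was 0.06 ± 0.24. Without it the difference was -0.41 ± 0.11 and was called, since the CHD5 shRNA values of 0.43, 0.41 and 0.42 all lay below the other 2 control values of 0.86 and 0.79. That fit called 3 of 9 members and 10.8% of all probes.

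At day 12, limma called 0 of the 9 members (5.47% of all probes), and 3 had an unadjusted p under 0.05 (1771 of all 11079 probes). The arrays of the lentiviruses did not overlap for 6 of the 9, where the share of all probes was 38.2%. Neud4, Actl6b, Smarcd1, Smarcd3 and Smarcb1 lay higher after CHD5 shRNA on every array, and Actl6a lower.

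Neud4 had normalized log2 values of 1.55, 1.57 and 1.43 after CHD5 shRNA, against 1.14, 1.18 and 1.03 in control cultures. The log2 difference was 0.40 ± 0.17 (limma adjusted p = 0.23). Actl6b had 1.83, 1.86 and 1.81 against 1.54, 1.39 and 1.47, a difference of 0.37 ± 0.14 (limma adjusted p = 0.154). Smarcd1 had -0.52, -0.20 and -0.58 against -0.94, -0.72 and -0.96, a difference of 0.44 ± 0.15 (limma adjusted p = 0.101). All 3 genes had an exact two-sided permutation p of 0.1 at n = 3 arrays a group.

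None of the day 12 arrays is the dim one, but it enters the spread that the 6 groups share. Without it the same genes had log2 differences of 0.41, 0.38 and 0.45 and all 3 passed, where 13.3% of all probes were called. The fit on the 6 arrays of day 12 alone called all 6 members whose groups did not overlap, where 23.6% of all probes were called. Actl6a had 0.48, 0.5 and 0.33 after CHD5 shRNA against 0.77, 0.55 and 0.80, a log2 difference of -0.27 ± 0.24, opposite in sign to that of its neuronal counterpart Actl6b. Smarca4, Smarce1 and Phf10 had log2 differences of 0.02 ± 0.14, 0.05 ± 0.10 and 0.00 ± 0.12.

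**Figure D4:**
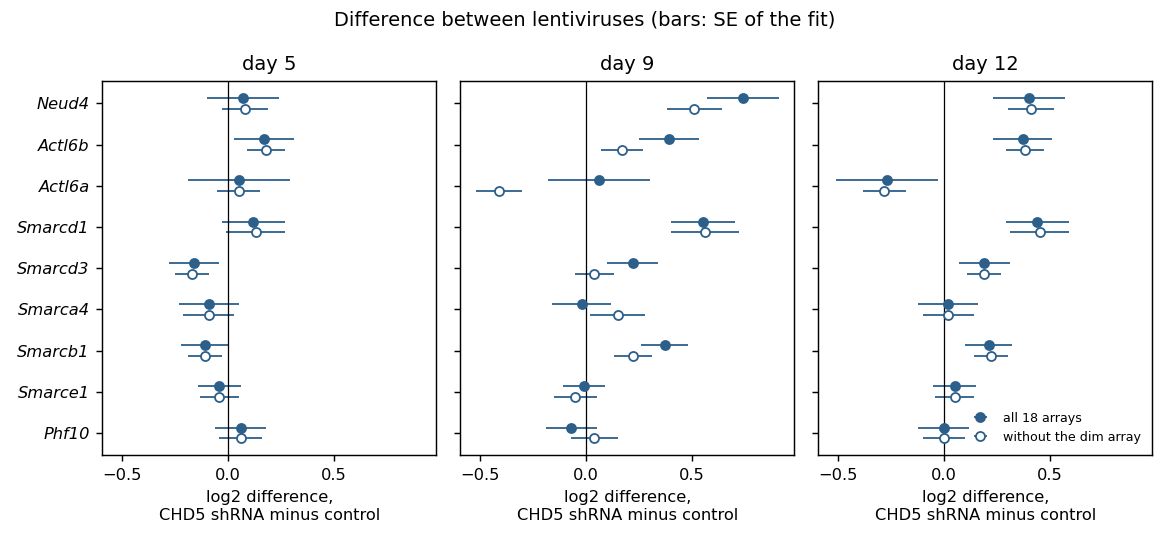
Log2 difference between CHD5 shRNA and control for each member at days 5, 9 and 12, with all 18 arrays (filled) and without the dim day 9 control array (open). Bars are the SE of the limma fit. At day 12 Neud4, Actl6b and Smarcd1 lie between 0.37 and 0.45 in both fits, and Actl6a moves from 0.06 to -0.41 at day 9.

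Whether these differences changed from day to day was tested as the change of the difference. limma called 0 of the 9 members between days 5 and 9 (0% of all probes), between days 9 and 12 (0%) and between days 5 and 12 (0.153%), with 3, 0 and 0 members at an unadjusted p under 0.05. It called 0 members without the dim array as well, where 0.634%, 0.00918% and 2.41% of all probes were called. The difference of Neud4 changed by 0.67 ± 0.24 from day 5 to day 9 (limma adjusted p = 0.508), or 0.43 ± 0.17 without the dim array. So the day 9 differences of Neud4 and Smarcd1 (0.42 ± 0.21 as a change from day 5, limma adjusted p = 0.701) were not shown to differ from those at day 5.

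Beside these results astrocyte markers were lower after CHD5 shRNA. Of the 8 kept, 6 were called lower at day 9 and 5 at day 12, where 249 and 359 of all 11079 probes were. The median log2 differences of the 8 were -1.21 and -0.83. Without the dim array the medians were -0.89 and -0.85, and 6 and 7 of the 8 were called lower, where 10.8% and 13.3% of all probes were called. Tubb3, a neuronal tubulin, was higher on both days, with log2 differences of 0.55 ± 0.13 (limma adjusted p = 0.0175) and 0.53 ± 0.13 (0.0185), or 0.59 and 0.54 without the dim array. It was the 1 neuron marker of 10 that was called at either, where 5.89% and 5.47% of all probes were called. The part of these shifts in the higher Neud4, Actl6b and Smarcd1 was not tested.

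Of 21 further BAF subunits, 18 were matched and 15 kept. Between the lentiviruses limma called 0 of the 15 at day 5, 9 or 12 (0.171%, 5.89% and 5.47% of all probes). Their median log2 difference was 0.04 at day 9 and 0.06 at day 12, beside -0.02 and 0.01 for all probes. In control cultures from day 5 to day 12, 3 of the 15 fell (12.5% of all probes) and 2 rose (11.1%). Smarcc1, which encodes the scaffold subunit BAF155 and is abundant in progenitors, fell by 0.58 on the log2 scale (SE 0.09, limma adjusted p = 9.11e-05), Bcl7c by 0.81 and the zinc finger factor Bcl11b by 0.62. Ss18, the progenitor counterpart of the neuronal subunit Ss18l1, rose by 0.70 ± 0.20, and Arid2 by 0.41 ± 0.13. Over the same days the fit without the dim array called 6 of the 15 lower and 2 higher, and 39% of all probes. From day 5 to day 9, 4 of the 15 fell (12.8% of all probes), these being Smarcc1 (-0.60, or -0.57 without the dim array), Bcl7c (-0.73, or -0.47), Bcl11b (-0.82, or -0.55) and Arid1a (-0.66), and the last was not called without the dim array. In the fit that left out the dim array Ss18 was called lower after CHD5 shRNA at day 9 (-0.51 ± 0.14) and day 12 (-0.54 ± 0.13), and Brd9 higher at day 12 (0.25 ± 0.08). That fit called 10.8% of all probes at day 9 and 13.3% at day 12.

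Among 13 kept ATPases of other remodeling complexes, 1 was called at day 9 (5.89% of all probes), namely Smarca1, an ISWI ATPase. Its log2 difference was 0.41 ± 0.10 with all arrays and 0.28 ± 0.09 without the dim one. At day 12, 0 of the 13 were called (5.47% of all probes), and 1 in the fit without the dim array (13.3%). Of 6 genes listed for their ties to the subunit exchange or to the neuronal complex 4 were kept, and a part of any of them in the exchange was not tested. Ngef, a neuronal guanine nucleotide exchange factor, was higher after CHD5 shRNA at day 12 by 0.56 ± 0.13 (limma adjusted p = 0.0141). It was the 1 of these 4 called on that day, where 5.47% of all probes were called.

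The genes whose course over the 18 arrays was most like that of Neud4 were Ube2d1_predicted, a ubiquitin-conjugating enzyme (Pearson r = 0.977), Spint2, a protease inhibitor (0.974), and LOC498525 (0.966). For Actl6b they were Itsn1, an endocytic scaffold (0.974), Coro2a_predicted (0.971) and Trim36_predicted (0.967). Without the dim array, over 17 arrays, these ran from 0.94 to 0.975. The arrays share days and lentiviruses, so these values are descriptions.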

How the data were processed

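Per the file headers, the authors read the 18 Illumina RatRef-12 arrays in GenomeStudio 1.1.1 and deposited, for each probe, a mean bead signal intensity that was neither normalized nor corrected for background. A detection p-value against the array's negative controls was deposited with it. Replicate a of every group (6 arrays) has a second measurement, used only as an alternative. Probes with a detection p of at most 0.02 on 1 array or more were kept (11079 of 22523). Following the study's methods, log2 signals were turned into Z-scores array by array, then rescaled by the average SD over arrays (1.794).

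limma 3.58.1 in R 4.3.3 (lmFit, eBayes) was fitted to the 6 groups together. Adjustment was by Benjamini-Hochberg over all kept probes within a comparison, with 0.05 as the limit. For single genes an exact two-sided permutation p of 3 against 3 arrays is given as well. Array number limits the precision. On simulated data at day 9, the fit recovered 45% of probes with a log2 change of 0.5 and 92% with a change of 1, and 2.84% of its calls were false. The simulated noise of a probe was independent and had the same SD on every array, so the dim array was not reproduced. These rates may therefore not hold for the day 9 calls.

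The members and lists were chosen with earlier results of these data known. Of several probes of a gene, the one with the highest mean signal was used. The named genes are the members, the further BAF subunits called between the lentiviruses, and the 3 genes most like Neud4 and Actl6b by Pearson correlation. Other genes of the lists, the further subunits that changed over days among them, were named after their values were seen. Markers of neurons, progenitors, proliferation, astrocytes, the oligodendrocyte lineage, microglia, and endothelial cells and fibroblasts were read as values.

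Pairing by replicate letter, which the labels do not explain, was examined through the correlation, for each letter and day, of the deviations of the CHD5 shRNA and control arrays from their groups. For letters a, b and c this was 0.27, 0.17 and 0.38 (day 5), 0.43, 0.15 and -0.2 (day 9), then 0.05, 0.15 and 0.01 (day 12). The main fit did not pair the letters on any day, and they entered only as a block in the alternatives. Alternatives were quantile normalization, median centring, neqc (offset 16), an unfiltered probe set, a stricter filter that asked for detection on every array of a group, the second measurements, array weights, a replicate block, fits of the compared groups alone, and each array left out in turn. Of the probe coordinates, whose build is not given in the sources used here, only the number of blocks was used.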

Additional observations from a re-analysis of the deposited data

How the results depend on the processing

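The count of the 9 members called was recomputed under each alternative. Between the lentiviruses at day 9 (2 members, 5.89% of all probes) it was 0 with median centring, without a detection filter (1.36%) and in the fit of the groups compared alone (0%). It was 1 with the stricter detection filter (8.17%), with the second measurement of replicate a (6.03%) and with array weights (4.92%). At day 12 (0 members) it was 2 with quantile normalization, 1 with neqc, and 6 with array weights and in the fit of the groups compared alone. In control cultures the count from day 5 to day 9 (4) was 2 with median centring, 1 with array weights and 0 in the fit of the groups compared alone, that from day 9 to day 12 (0) was 1 with quantile normalization, and that from day 5 to day 12 (5) was 2 with median centring and 3 without a detection filter. In CHD5 shRNA cultures the count from day 5 to day 9 (0) was 2 with quantile normalization, 1 with neqc, 1 with the stricter detection filter, 4 with array weights and 3 in the fit of the groups compared alone. From day 9 to day 12 (0) it was 2 with array weights and 1 in the fit of the groups compared alone, and from day 5 to day 12 (3) it was 1 with median centring and 6 with array weights and in the fit of the groups compared alone. The shares of all probes moved too. Array weights called 32.3% of them between the lentiviruses at day 12, 36.4% from day 5 to day 9 and 45.1% from day 5 to day 12 in CHD5 shRNA cultures, and the groups compared alone called 23.6%, 26% and 33.8%. From day 9 to day 12 in those cultures they called 23.7% and 15.1%, and from day 5 to day 9 in control cultures 8.67% and 2.4%, where median centring called 13.9%. Median centring called 0.587% between the lentiviruses at day 9 and 13.3% from day 5 to day 12 in control cultures, and quantile normalization 8.82% and neqc 7.43% between the lentiviruses at day 12, then 14.9% and 12.5% from day 5 to day 9 in CHD5 shRNA cultures. The cause of these shifts was not tested.

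Leaving out each array in turn, the count between the lentiviruses was 0 to 0 at day 5, 0 to 4 at day 9 and 0 to 3 at day 12. In control cultures it was 2 to 7 from day 5 to 9, 0 to 1 from day 9 to 12 and 3 to 6 from day 5 to 12, and in CHD5 shRNA cultures 0 to 3, 0 to 1 and 1 to 6. The day 9 count was 0 without CHD5 shRNA replicate a (2.06% of all probes) or c (0.885%), and 4 without control replicate a (13.4%). The day 12 count was 3 without the dim array (13.3%). With all arrays these shares were 5.89% at day 9 and 5.47% at day 12. In control cultures the day 5 to day 9 count was 2 without day 5 replicate b (15.7% of all probes) and 7 without day 9 replicate a (46.1%). The day 5 to day 12 count was 3 without day 5 replicate b (18.5%) or any 1 of the day 12 arrays (17.7% to 18.5%), where all arrays gave 23.6%. In CHD5 shRNA cultures the day 5 to day 12 count was 1 without day 5 replicate b (11.9% of all probes) or day 12 replicate a (12.7%). It was 6 without the dim array (32.2%), where all arrays gave 17%.

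With the replicate letter as a block, the count in CHD5 shRNA cultures from day 5 to day 9 was 1 in place of 0, and with a replicate block within a day the day 9 count between the lentiviruses was 3 in place of 2. With either block the day 5 count between the lentiviruses stayed at 0, and the blocks changed no other count.

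Without the dim day 9 control array the sign turned for Actl6a, to -0.41 between the lentiviruses at day 9, 0.12 from day 5 to day 9 and -0.12 from day 9 to day 12 in control cultures, and for Neud4 to -0.03 from day 9 to day 12. The change of the Actl6b difference from day 5 to day 9 became 0. With array weights, Actl6a was at 0.06 and -0.04 over the same 2 intervals, and the change of the Smarcb1 difference from day 9 to day 12 was 0.01. Over all arrays left out in turn, these Actl6a values ran from -0.41 to 0.3, from -0.59 to 0.12 and from -0.12 to 0.59, that of Neud4 from -0.03 to 0.4 and that of Actl6b from 0 to 0.35. Differences smaller than their SE and uncalled in both fits were given no direction. The weights did not converge fully. The second probes of Smarcd3 and Smarce1 were detected on no array, so an alternative with other probes was not run.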
